A study of Mus musculus with 8 samples.

Results

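Gene expression was measured in mouse retina, and 9 genes of the pigmented tissues of the eye are described here: Ttr, Kcnj13, Best1, Slc26a7, Tyr, Tyrp1, Dct, Mlana and Slc45a2. They are known markers of retinal pigment epithelium and melanocytes, and how far they varied between pools of retina is described array by array. Each was read from the probe set with the highest mean signal, and all 9 had exactly 1 probe set of their own among the 19938 genes measured. No filter on dim signal was applied, so all 9 entered the comparisons. Male C57BL/6 mice, 6 weeks old, were given saline or MPTP. This toxin is converted in the brain to a compound that dopaminergic neurons take up and that blocks complex I of their mitochondria. The groups were saline 1 week, MPTP 1 week, saline 4 weeks and MPTP 4 weeks (7 and 28 days), with 2 arrays each; dose and injection schedule are not given in the labels. A group had 6 mice, and each array measured a pool of 4 retinas. The labels do not say that both pools of a group held different mice, so p-values measure only the spread between these arrays.

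The retinal pigment epithelium is a single layer of pigmented cells behind the photoreceptors. It recycles the chromophore of the visual pigments, moves ions and nutrients between blood and retina, and takes up shed outer segments. Melanin is made there, in the ciliary and iris epithelium and in melanocytes of the choroid and iris, inside organelles called melanosomes. A dissected retina can carry some of these cells with it. In pooled tissue, fewer cells of a type and less RNA per cell cannot be told apart.

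The 9 genes fall into 2 roles. Ttr encodes transthyretin, the carrier of thyroxine and of retinol-binding protein, which the pigment epithelium makes in the eye. Kcnj13 encodes the potassium channel Kir7.1 of its apical membrane, Best1 the calcium-activated chloride channel bestrophin 1, and Slc26a7 an anion transporter. Tyr, Tyrp1 and Dct encode tyrosinase, the rate-limiting enzyme of melanin synthesis, and 2 related enzymes of the same pathway. Mlana encodes a melanosome protein that takes part in the maturation of the fibrils on which melanin is laid down, and Slc45a2 a melanosome transporter needed for normal pigmentation.

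Many pigment cell genes are bound by the transcription factor MITF at a short element called the M-box. Upstream sequences are shown for the genes that hold these letters. RefSeq promoters (GRCm38.p6) were at hand for 5 of the 9 genes, and the 250 bases before the transcription start were searched for the letters TCATGTG on both strands. The letters occurred in 4 of the 5 genes and in 3.25% of all 32851 promoters of the same length. They were chosen as those of an element of pigment cell genes, so this contrast is not a test. Capitals mark them below, and CACATGA is the same element read on the other strand. A match is a description of the letters and not evidence of binding.
Tyr, chr7:87493513-87493762, minus strand: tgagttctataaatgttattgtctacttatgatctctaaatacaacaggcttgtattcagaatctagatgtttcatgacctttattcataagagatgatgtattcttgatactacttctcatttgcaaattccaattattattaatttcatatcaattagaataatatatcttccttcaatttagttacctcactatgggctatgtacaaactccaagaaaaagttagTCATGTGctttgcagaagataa
Tyrp1, chr4:80833963-80834212, plus strand: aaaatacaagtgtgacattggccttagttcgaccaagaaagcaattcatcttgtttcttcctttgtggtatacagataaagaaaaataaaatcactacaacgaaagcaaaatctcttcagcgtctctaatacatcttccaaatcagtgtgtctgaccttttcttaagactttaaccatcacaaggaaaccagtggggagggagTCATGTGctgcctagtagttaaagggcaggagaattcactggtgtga
Dct, chr14:118052247-118052496, minus strand: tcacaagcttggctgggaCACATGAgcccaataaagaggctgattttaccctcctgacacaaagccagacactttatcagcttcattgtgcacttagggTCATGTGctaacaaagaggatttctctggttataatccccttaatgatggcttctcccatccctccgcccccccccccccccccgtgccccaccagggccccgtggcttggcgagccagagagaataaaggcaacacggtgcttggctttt
Kcnj13, chr1:87394730-87394979, minus strand: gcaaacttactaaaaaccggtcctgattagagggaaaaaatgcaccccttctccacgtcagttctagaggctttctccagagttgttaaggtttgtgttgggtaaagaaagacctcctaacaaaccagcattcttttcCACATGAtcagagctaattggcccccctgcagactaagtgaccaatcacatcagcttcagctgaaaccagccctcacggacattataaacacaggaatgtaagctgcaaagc

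The element began 22 bases before the start in Tyr, 47 in Tyrp1, 151 and 232 in Dct, and 112 in Kcnj13. Tyr and Tyrp1 shared the flanked form agTCATGTGct, and the nearer element of Dct read ggTCATGTGct. The upstream window of Best1 did not hold these letters.

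The labelled tissue was checked on rod genes. Of 10 rod photoreceptor genes, 8 had a probe set of their own, and their mean log2 signal lay between 11.32 and 11.43 on every array. On the leading principal component over all genes (38.3% of variance), saline 1 week array 2 and MPTP 1 week array 1 stood apart from the other 6 arrays. Levels below are log2 RMA signals, on which a difference of 1 is a 2-fold difference. Levels of different genes are not set against each other, since probes differ in brightness. Ttr and Kcnj13 stood at percentiles 98.9 and 93.4 of mean signal among all genes and Mlana at 62.5, and the other 6 genes were below the median, from percentile 13.3 (Tyr) to 38.9 (Dct).

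Ttr varied most of the 9 genes, by 2.25-fold between the lowest and the highest array. Its signal was 10.56 and 9.87 on arrays 1 and 2 of saline 1 week, 10.05 and 11.04 in MPTP 1 week, 10.90 and 10.42 in saline 4 weeks, and 10.98 and 10.40 in MPTP 4 weeks. The 2 lowest values belonged to the 2 arrays that stand apart, and the highest to MPTP 1 week array 2, so the 1 week groups held both extremes. The group means were 10.21 ± 0.49, 10.54 ± 0.70, 10.66 ± 0.33 and 10.69 ± 0.41 (SD, n = 2) in the same order, and these neighbours did not differ beyond their spread.

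Kcnj13 had a narrower range with a similar order of arrays. Its signal was 9.12 and 8.91 in saline 1 week, 9.02 and 9.34 in MPTP 1 week, 9.72 and 9.33 in saline 4 weeks, and 9.59 and 9.29 in MPTP 4 weeks. Again the 2 arrays that stand apart were lowest, and array 1 was above array 2 in both 4 week groups. From lowest to highest, the group means were 9.02 ± 0.15 in saline 1 week, 9.18 ± 0.22 in MPTP 1 week, 9.44 ± 0.21 in MPTP 4 weeks and 9.53 ± 0.28 in saline 4 weeks (SD, n = 2), and neighbours in this order overlapped.

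Slc26a7, whose order of arrays was close to that of Ttr, and Best1 are given next. Slc26a7 was 6.12 and 6.09 in saline 1 week, 5.79 and 6.29 in MPTP 1 week, 6.32 and 6.12 in saline 4 weeks, and 6.43 and 6.05 in MPTP 4 weeks. Its lowest array was MPTP 1 week array 1 and its highest MPTP 4 weeks array 1, a 1.56-fold range. Best1 was 6.58 and 6.31 in saline 1 week, 6.32 and 6.37 in MPTP 1 week, 6.20 and 6.31 in saline 4 weeks, and 6.43 and 6.31 in MPTP 4 weeks. All values of Best1 lay within 1.30-fold, with saline 1 week array 1 the highest and saline 4 weeks array 1 the lowest.

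Tyrp1, Dct and Mlana had 2 high arrays in common, saline 1 week array 2 and MPTP 1 week array 2. Dct was 6.56 and 7.11 in saline 1 week, 6.39 and 7.00 in MPTP 1 week, 6.54 and 6.48 in saline 4 weeks, and 6.63 and 6.44 in MPTP 4 weeks. Mlana was 7.14 and 7.69 in saline 1 week, 7.04 and 7.76 in MPTP 1 week, 7.33 and 7.34 in saline 4 weeks, and 7.28 and 7.40 in MPTP 4 weeks. For both genes array 2 of each 1 week group stood above all other arrays, and the 4 arrays of 4 weeks lay close together, within 0.19 for Dct and 0.11 for Mlana. Tyrp1 was 6.56 and 6.82 in saline 1 week, 6.40 and 6.97 in MPTP 1 week, 6.59 and 6.66 in saline 4 weeks, and 6.55 and 6.37 in MPTP 4 weeks. The same 2 arrays were its highest, with a smaller gap to the next.

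Tyr and Slc45a2 shared neither profile in full. Tyr was 5.62 and 5.64 in saline 1 week, 5.37 and 5.64 in MPTP 1 week, 5.46 and 5.30 in saline 4 weeks, and 5.60 and 5.14 in MPTP 4 weeks. Its 3 highest arrays were all of 1 week and its lowest was MPTP 4 weeks array 2. Slc45a2 was 6.70 and 6.38 in saline 1 week, 6.45 and 6.75 in MPTP 1 week, 6.64 and 6.72 in saline 4 weeks, and 6.77 and 6.57 in MPTP 4 weeks. Although Slc45a2 is a melanosome gene, its 2 lowest arrays were those of Ttr and Kcnj13.

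**Figure D1:**
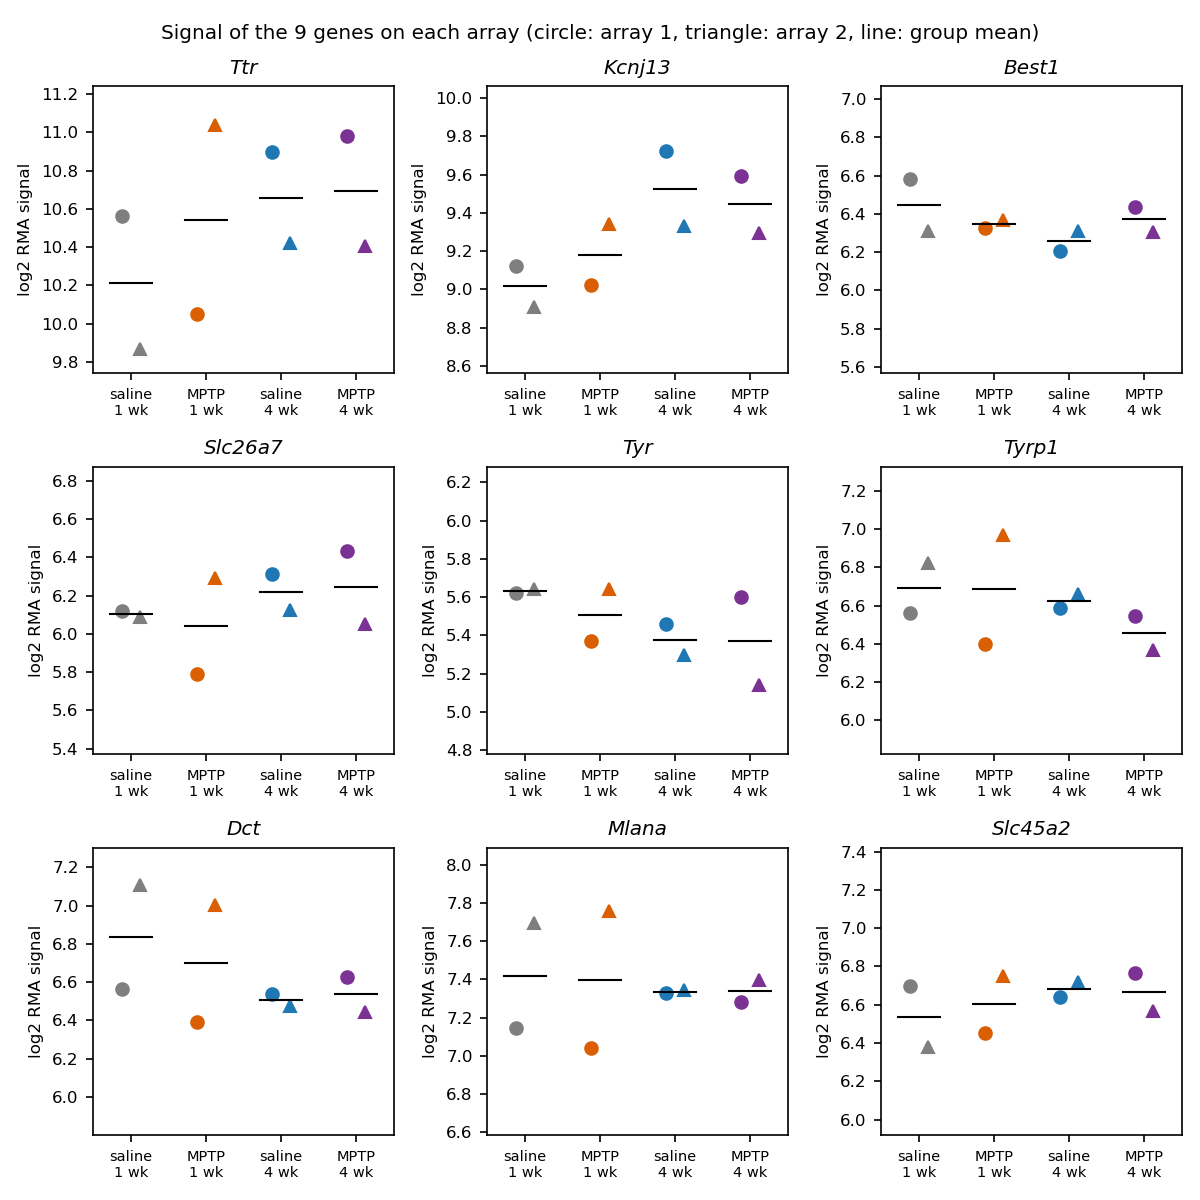
Log2 RMA signal of each gene (vertical axis, a span of 1.5 in every panel) on the 8 arrays, by group (horizontal axis). Circles are array 1, triangles array 2, and lines group means. Ttr is highest on MPTP 1 week array 2 (11.04) and lowest on saline 1 week array 2 (9.87), the array on which Dct is highest (7.11).

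Pools of the same group spread more for these genes than for most genes on the arrays. The 9 genes were chosen with earlier results of these data known, so the shares below describe this list and are not a test. Of the 9 genes, 6 had a range over the 8 arrays of at least 1.5-fold, against 7.4% of all genes, and 5 (Ttr, Mlana, Dct, Slc26a7 and Tyrp1) were among the 5% of genes with the highest within-group SD. The median within-group SD was 0.23 for the 9 genes and 0.10 for all genes. Without the 2 arrays that stand apart, a choice made after the values were seen, 4 of the 9 genes (Ttr, Mlana, Tyrp1 and Kcnj13) had a range of at least 1.5-fold over the other 6 arrays, against 2.95% of all genes. The median range was then 0.56 for the 9 genes and 0.24 for all genes. Within groups, Best1 was the least variable, at percentile 57.3 of within-group SD, and Slc45a2 stood at 85.8, Tyr at 91.8 and Kcnj13 at 94.8.

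How far the 2 pools lay apart is given by group. The median absolute difference between the arrays of a group over the 9 genes was 0.50 in MPTP 1 week, 0.27 in saline 1 week, 0.20 in MPTP 4 weeks and 0.11 in saline 4 weeks. The same median over all genes was 0.12, 0.14, 0.10 and 0.08. In MPTP 1 week array 2 was above array 1 for all 9 genes. The differences were 0.99 for Ttr (1.98-fold), 0.72 for Mlana, 0.61 for Dct, 0.57 for Tyrp1 and 0.50 for Slc26a7. Best1 differed by 0.04, and its sign turned (-0.07 to -0.0065) under quantile normalization, cyclic loess and median centring, which left 8 of the 9. The median over all genes was 6.946 on array 1 and 6.996 on array 2 of this group. How many of all genes were higher on array 2 was not counted in any group. The counts of signs here are therefore not read as particular to the 9 genes. Array 1 of MPTP 1 week was also the lowest array for other lists, among them other melanosome, fibroblast and oligodendrocyte genes. In saline 1 week the genes split: array 2 was lower by 0.69 on the log2 scale for Ttr (difference -0.69), with Kcnj13 at -0.21 and Slc45a2 at -0.32, and higher by 0.54 for Dct, 0.55 for Mlana and 0.26 for Tyrp1. At 4 weeks Ttr differed by -0.47 in saline and -0.58 in MPTP, and Mlana by 0.01 and 0.11. In MPTP 4 weeks array 2 was below array 1 for 8 of the 9 genes under all 4 scalings, with Tyr at -0.46, Slc26a7 at -0.38 and Mlana the exception. The 2 arrays that stand apart are both of 1 week. In the 4 week groups, which hold neither, the median for the 9 genes was 1.38 (saline) and 2.12 (MPTP) times that of all genes. After quantile normalization, cyclic loess and median centring it was 1.33, 1.39 and 1.08 times in saline 4 weeks. In MPTP 4 weeks it was 2.19, 2.07 and 2.01 times in the same order. Little excess was thus left in saline 4 weeks with median centring. Whether the spread differed between times was not tested.

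**Figure D2:**
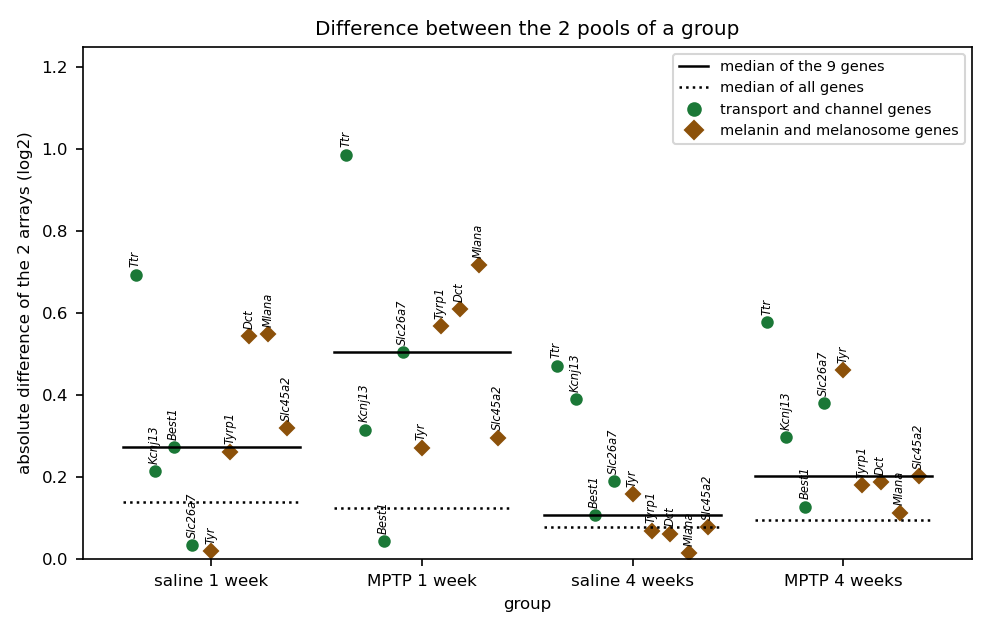
Absolute difference in log2 signal between the 2 arrays of each group (vertical axis) for the 9 genes, circles for transport and channel genes and diamonds for melanin and melanosome genes. Solid lines are the medians of the 9 genes (0.27, 0.50, 0.11 and 0.20 from left to right) and dotted lines those of all genes.

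Pairs of genes were compared over the 8 arrays, 36 pairs in all, with exact permutation tests, two-sided. Ttr and Kcnj13 gave Pearson's r = 0.84 (p = 0.0114, adjusted over the 36 pairs 0.0871) and Spearman's rho = 0.83 (p = 0.0154, adjusted 0.111). Their r was 0.88 after leaving out the 2 arrays farthest from the median of Ttr and 0.59 without the 2 arrays that stand apart. Ttr and Slc26a7 gave r = 0.83 (exact p = 0.00905, adjusted 0.0871) and rho = 0.83 (p = 0.0154, adjusted 0.111), with r = 0.98 without the 2 farthest arrays and 0.92 without the 2 that stand apart. Ttr and Slc45a2 gave r = 0.88 (exact p = 0.00454, adjusted 0.0871) and rho = 0.88 (p = 0.00724, adjusted 0.111), with r = 0.76 and 0.56 in the same order. Pairs without Ttr were as close by rank. Tyr and Dct gave rho = 0.88 (exact p = 0.00724, adjusted 0.111), and Kcnj13 and Slc26a7 gave rho = 0.86 (exact p = 0.0107, adjusted 0.111). No pair passed after adjustment.

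Dct, Mlana and Tyrp1 fell into 2 high arrays and 6 lower ones, so no correlation over all 8 arrays is given among them. Over the 6 lower arrays r was 0.21 for Dct and Mlana, 0.55 for Tyrp1 and Dct, and 0.23 for Tyrp1 and Mlana, and the pattern these genes share rests on the 2 high arrays. On saline 1 week array 2 the profiles of Ttr and Dct parted, with Ttr at its lowest and Dct at its highest, while MPTP 1 week array 2 was high for both.

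**Figure D3:**
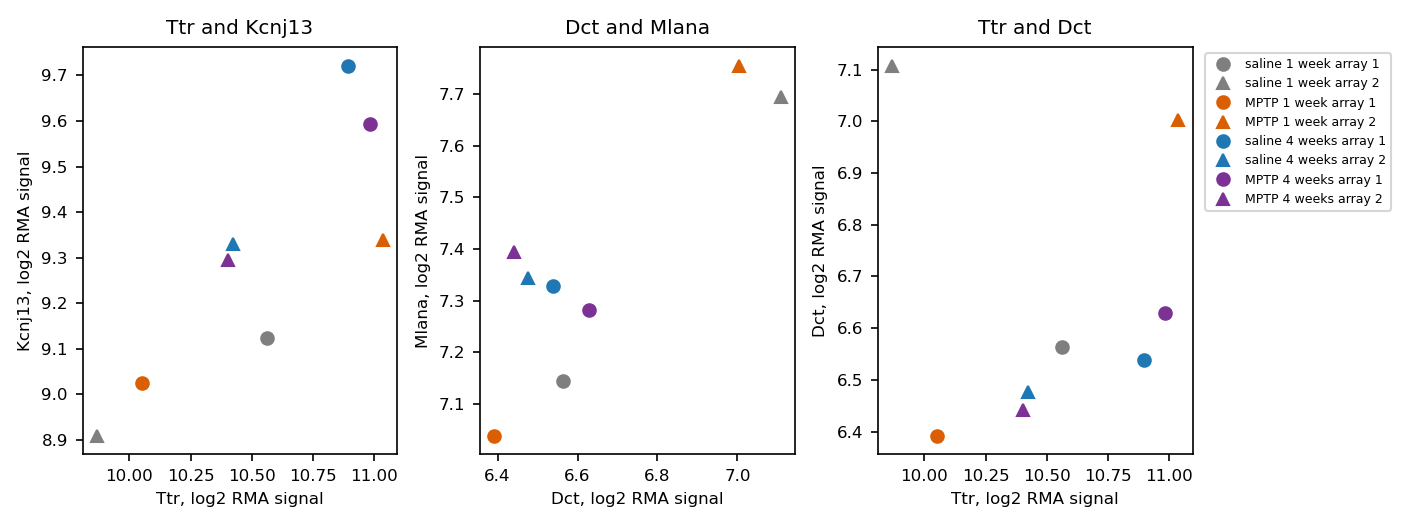
Log2 RMA signal on the 8 arrays for Ttr and Kcnj13 (left, r = 0.84), Dct and Mlana (middle) and Ttr and Dct (right), colours for groups, circles for array 1 and triangles for array 2. In the middle panel 2 arrays lie apart from the other 6, and in the right panel saline 1 week array 2 is low for Ttr (9.87) and high for Dct (7.11).

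Other genes of the pigment epithelium were set beside the 9, with 17 of 21 listed genes measured by a probe set of their own. Rpe65, the isomerase of the visual cycle, was 8.14 and 7.49 in saline 1 week, 7.73 and 9.11 in MPTP 1 week, 8.71 and 8.07 in saline 4 weeks, and 8.34 and 7.85 in MPTP 4 weeks. Rgr, an opsin of pigment epithelium and Mueller glia, was 8.90 and 8.27, 8.41 and 9.43, 9.29 and 8.83, and 9.09 and 8.75 in the same order. As for Ttr, the highest array of both genes was MPTP 1 week array 2 and the lowest saline 1 week array 2. Lrat, which esterifies retinol, ranged from 6.72 to 7.62 with the same highest array. Rpe65, Rgr and Lrat were picked with their values known. Of the 17 genes, 6 were highest on MPTP 1 week array 2, and 12 were above their own mean there and 5 below. The lowest array of 10 was 1 of the 2 that stand apart. These shares were not counted over all genes. Below their mean on MPTP 1 week array 2 were, among others, Rlbp1 (-0.25) and the keratin gene Krt18 (-0.13). The 4 genes among the 5% with the highest within-group SD were Rpe65, Rgr, Lrat and Ermn, and Ermn was highest on saline 4 weeks array 1. Otx2 and Rlbp1 are also expressed by retinal neurons or Mueller glia. Rlbp1 was 8.19 and 8.20 in MPTP 1 week, where Rpe65 differed by 1.38 between the arrays.

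Of 13 other melanosome genes, all were measured and 0 were among the 5% with the highest within-group SD. Gpnmb, a melanosome glycoprotein that macrophages and microglia also make, was 7.48 and 7.86 in saline 1 week, 7.17 and 7.65 in MPTP 1 week, 7.41 and 7.39 in saline 4 weeks, and 7.44 and 7.37 in MPTP 4 weeks. Its highest array was that of Dct. Pmel, the protein of melanosome fibrils, stayed between 6.49 and 6.78, and Slc24a5, a melanosome exchanger, between 8.19 and 8.39. The 7 genes of neural crest melanocytes, among them Sox10, Kit and Mc1r, had a mean signal of 6.43 to 6.67, and their highest array was saline 4 weeks array 2, not an array on which Dct or Mlana was high.

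**Figure D4:**
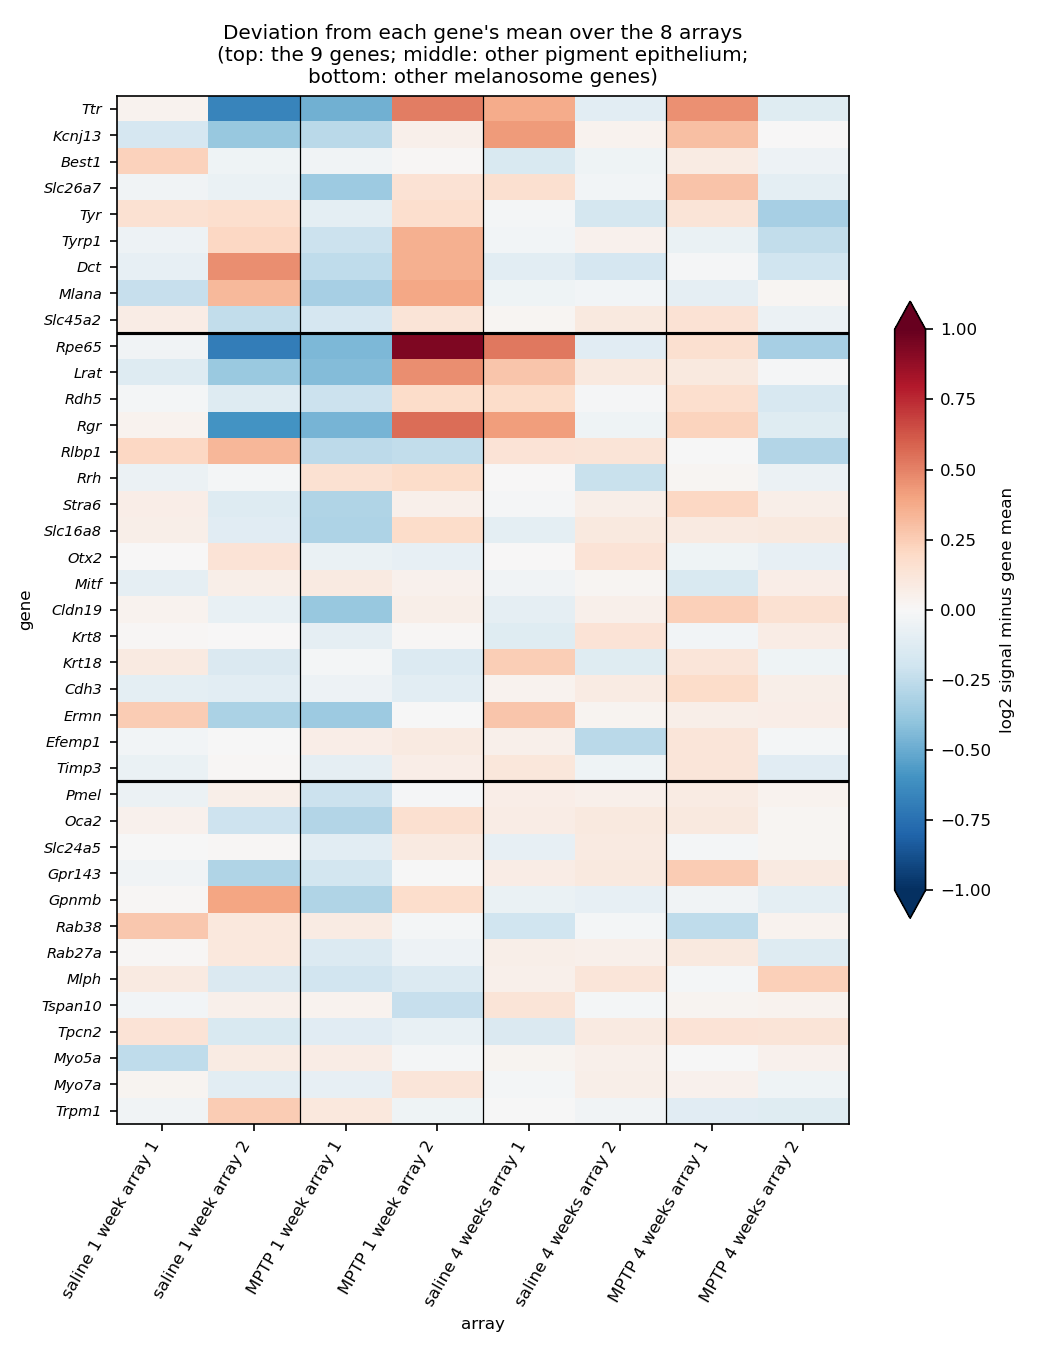
Log2 signal minus the gene's mean over the 8 arrays (colour, red above and blue below, saturated at 1) for the 9 genes, 17 other pigment epithelium genes and 13 other melanosome genes (rows) on the 8 arrays (columns). Ttr, Rpe65, Rgr and Lrat are low on saline 1 week array 2 and MPTP 1 week array 1, and Dct, Mlana and Gpnmb are high on saline 1 week array 2.

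Crystallin genes of the lens were high on MPTP 1 week array 2, where the mean of the 9 genes was highest. Of the 9, only Ttr, Tyr, Tyrp1 and Mlana were themselves highest there. The 14 measured lens genes of 15 had a mean signal of 7.99 on MPTP 1 week array 2 and of 6.99 to 7.60 on the other arrays. Of the 9 crystallin genes, 8 were highest on MPTP 1 week array 2, among them Crygs (1.72 above its own mean) and Cryba1 (1.52 above). Of the 5 other lens genes (Mip, Lim2, Bfsp1, Bfsp2 and Gja3), 0 were highest there, and their deviations ran from -0.0084 to 0.20. The lowest lens mean was on MPTP 1 week array 1, where the mean of the 9 genes was also lowest (6.98, against 7.46 on MPTP 1 week array 2). That array was not lowest for these lists alone. It was also lowest for the other pigment epithelium, other melanosome, neural crest melanocyte, fibroblast, smooth muscle and oligodendrocyte lists. Its median over all genes, 6.946, was the lowest of the 8 arrays. The fibroblast list, like the lens list, was highest on MPTP 1 week array 2. In saline 4 weeks the lens list and the 9 genes parted. The mean deviation of lens genes from their own means was -0.28 on array 1 and 0.22 on array 2. That of the 9 genes was 0.07 and -0.04. The mean signal of vascular endothelium was 7.00 to 7.14, of scleral and stromal fibroblasts 6.03 to 6.22, of iris and vascular smooth muscle 6.45 to 6.66, and of cornea and conjunctiva 6.28 to 6.55. Skeletal muscle genes were lowest on saline 1 week array 1, at 6.71. Oligodendrocyte genes lay between 6.42 and 6.67, erythroid genes between 6.96 and 7.15, and Mueller glia between 9.18 and 9.38. Their part in the values of the 9 genes was not tested.

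The genes above the median signal whose profile was most like the mean of the 9 genes were Cbx2, Popdc3, Ajm1, Id4, Sez6, Fitm2, Crlf2, Kcna6, Tusc1 and Unkl, with r from 0.91 to 0.95 over the 8 arrays, among 9511 genes ranked. Without MPTP 1 week array 2 their r was 0.88 to 0.94. None of the 10 is in a pigment list used here, and their ranges over the arrays were 0.17 to 0.53. Without the 2 arrays that stand apart their r was 0.87 to 0.98. Genes picked as the highest of 9511 over only 8 arrays have a high r in part through the ranking itself. Leaving out arrays after the ranking does not remove this, and the likeness was not tested. The genes most like Ttr, ranked after the values were seen, were Col8a1 (r = 0.98), Rgr (0.97), Egln2 (0.95), Borcs5 (0.93) and Trf (0.93), with r of 0.91 to 0.95 without those 2 arrays.

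MPTP against saline at 1 week did not separate the 9 genes. By limma with Benjamini-Hochberg adjustment over all 19938 genes, 0 of the 9 passed the threshold of 0.05 (smallest adjusted p = 0.9998), against 0% of all genes, and 0 of 9 had an unadjusted p under 0.05, against 4.22% of all genes. In 0 of 9 did the arrays of the 2 groups lie apart without overlap, against 26.3% of all genes. The log2 difference was 0.33 ± 0.33 for Ttr (SE of the fit, n = 2), with a 95% interval of -0.41 to 1.07, and 0.16 ± 0.16 for Kcnj13. It was -0.14 ± 0.21 for Dct, -0.13 ± 0.15 for Tyr, -0.10 ± 0.11 for Best1 and 0.06 ± 0.14 for Slc45a2. Those of Slc26a7 (-0.06 ± 0.17), Mlana (-0.02 ± 0.22) and Tyrp1 (-0.0050 ± 0.17) were smaller still. In all, 3 of the 9 values were above 0 and 6 below, with a median of -0.02, against -0.0081 for all genes.

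These 1 week values rest on single arrays. Without the 2 arrays that stand apart, each 1 week group kept a single array, so the value was MPTP array 2 minus saline array 1. Mlana was then at 0.61, Dct at 0.44 and Tyrp1 at 0.41, the opposite sign. Ttr moved from -0.16 to 0.82 as each array was left out in turn.

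At 4 weeks the values lay between -0.17 (Tyrp1) and 0.11 (Best1). Of the 9 genes, 0 passed after adjustment (limma, smallest adjusted p = 0.9999; 0% of all genes) and 0 had an unadjusted p under 0.05 (1.91% of all genes). Tyrp1 was the only 1 of the 9 without overlap between groups, lower in MPTP, against 17.9% of all genes lower without overlap and 35.3% in either direction. Its difference was -0.17 ± 0.17, with an interval of -0.54 to 0.21. Best1 stood at 0.11 ± 0.11, Kcnj13 at -0.08 ± 0.16, Ttr at 0.03 ± 0.33, and the other 5 between -0.01 and 0.03. The median was 0.0022, against 0.0043 for all genes.

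Over both times, with 4 arrays against 4, 0 of the 9 genes passed (limma, smallest adjusted p = 0.979; 0% of all genes), 0 had an unadjusted p under 0.05 (4.76% of all genes) and 0 lay without overlap (2.5% of all genes). Ttr stood at 0.18 ± 0.23 with an interval of -0.32 to 0.68, Tyrp1 at -0.09 ± 0.12 and Tyr at -0.07 ± 0.10. Dct stood at -0.06 ± 0.14, Kcnj13 at 0.04 ± 0.12, Slc45a2 at 0.03 ± 0.09, Slc26a7 at -0.02 ± 0.11, Mlana at -0.0098 ± 0.15 and Best1 at 0.0051 ± 0.08. Without the 2 arrays that stand apart Mlana was at 0.21 and Dct at 0.17. The narrowest interval, that of Best1, ran from -0.17 to 0.18. A p above the threshold does not show that MPTP left these genes alike.

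**Figure D5:**
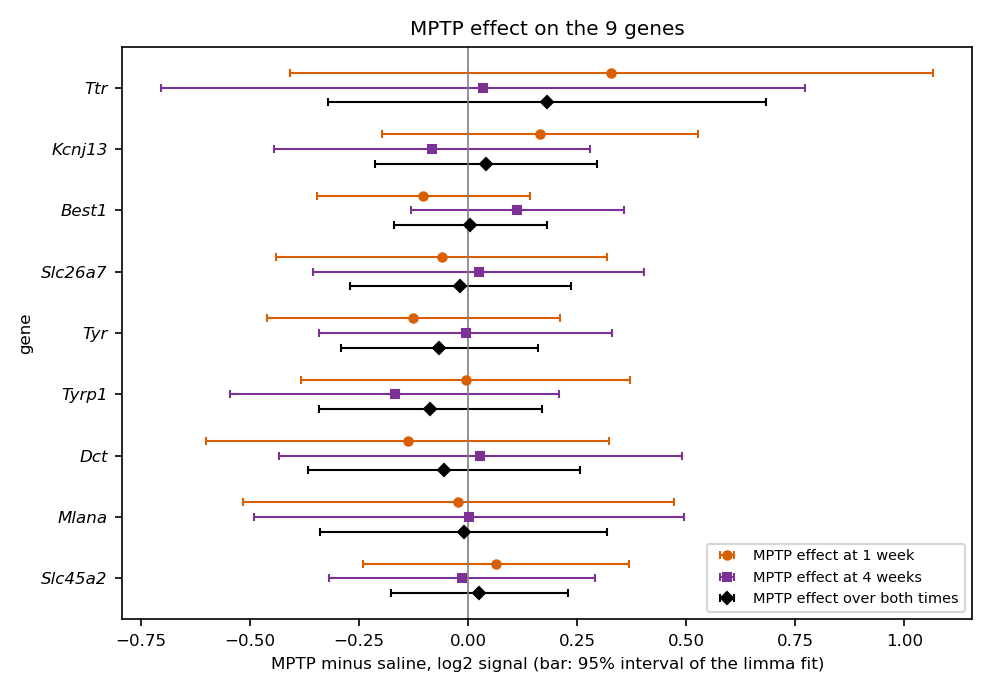
MPTP minus saline in log2 signal (horizontal axis) for the 9 genes at 1 week (circles), at 4 weeks (squares) and over both times (diamonds), with 95% intervals of the limma fit. Every interval includes 0, and those of Ttr are the widest.

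Among the other pigment epithelium genes, 0 of 17 passed after adjustment in these 3 comparisons, with medians of 0.02 at 1 week, -0.03 at 4 weeks and 0.02 over both times. Rlbp1, the retinaldehyde-binding protein, had the smallest unadjusted p in each and stood at -0.52 ± 0.11, -0.28 ± 0.11 and -0.40 ± 0.08 in that order. At 1 week Rrh, a retinal opsin-like receptor of the pigment epithelium, stood at 0.21 ± 0.10, Otx2, a transcription factor, at -0.15 ± 0.09, and Rpe65 at 0.61 ± 0.40. At 4 weeks Cldn19, a tight junction protein, stood at 0.22 ± 0.14, Efemp1, a matrix protein, at 0.16 ± 0.11, and Otx2 at -0.13 ± 0.09. Over both times Otx2 stood at -0.14 ± 0.06, Rrh at 0.15 ± 0.07 and Efemp1 at 0.13 ± 0.08. The 1 week value of Rpe65 ran from -0.08 to 1.30 as each array was left out.

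Among the other melanosome genes, 0 of 13 passed in these 3 comparisons, with medians of -0.09, -0.0033 and -0.06. At 1 week Gpnmb stood at -0.26 ± 0.16 (0.16 without the 2 arrays that stand apart), Rab38 at -0.15 ± 0.12, Rab27a at -0.15 ± 0.10 and Mlph at -0.14 ± 0.12. Rab38 guides melanosome enzymes to their organelle, and Rab27a and Mlph link melanosomes to the motor that carries them. At 4 weeks the lysosome and melanosome channel Tpcn2 stood at 0.16 ± 0.12, Trpm1, a channel that bipolar cells also use, at -0.10 ± 0.11, the melanosome receptor Gpr143 at 0.09 ± 0.12 and Rab27a at -0.07 ± 0.10. Over both times Rab27a stood at -0.11 ± 0.07, Gpnmb at -0.13 ± 0.12, Trpm1 at -0.09 ± 0.07 and Gpr143 at 0.08 ± 0.08. Of 14 lens genes, 14 were above 0 at 1 week with a median of 0.12, against a median of -0.0081 for all genes. None passed after adjustment, and the share of all genes above 0 was not counted. On MPTP 1 week array 2, 8 of the 9 crystallin genes and 0 of the 5 other lens genes were highest. The mean signal of the 14 lens genes was 7.25 and 7.34 on saline 1 week arrays 1 and 2. In MPTP 1 week it was 6.99 on array 1, below both saline arrays, and 7.99 on array 2. The 2 MPTP arrays thus lay on opposite sides of the saline arrays in this mean. The part of array 2 in the lens values was not tested.

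Subtracting the 1 week MPTP effect from that at 4 weeks gave values between -0.29 ± 0.47 for Ttr and 0.21 ± 0.15 for Best1. Of the 9 genes, 0 passed (limma, smallest adjusted p = 0.9999; 0% of all genes), and 0 had an unadjusted p under 0.05 (1.96% of all genes).

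From 1 to 4 weeks in the saline groups, Kcnj13 had the largest difference, 0.51 ± 0.16 with an interval of 0.15 to 0.87 (unadjusted p = 0.0108 by limma). After adjustment over all genes it did not pass (adjusted p = 0.9997), nor did any of the 9, against 0% of all genes. Kcnj13 was the only 1 of the 9 with an unadjusted p under 0.05, against 0.873% of all genes higher at that p and 2.13% in either direction. It ran from 0.31 to 0.70 as each array was left out. Without saline 1 week array 2 it stood at 0.40 (unadjusted p = 0.0783 by limma). Without saline 4 weeks array 1 it stood at 0.31 (unadjusted p = 0.116 by limma), so the unadjusted p did not pass when either of them was left out. Kcnj13 and Slc26a7 (0.12 ± 0.17) were higher at 4 weeks without overlap, and Dct (-0.33 ± 0.21) and Tyr (-0.26 ± 0.15) lower without overlap, against 12.7% and 15.1% of all genes in these directions and 27.7% in either. Ttr stood at 0.44 ± 0.33 and Best1 at -0.19 ± 0.11. Without saline 1 week array 2, which stands apart, Dct was at -0.056, Ttr at 0.097, Tyr at -0.25 and Best1 at -0.33. As each array was left out, Dct ran from -0.60 to -0.056, Ttr from 0.097 to 0.79 and Best1 from -0.33 to -0.053.

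From 1 to 4 weeks in the MPTP groups, 0 of the 9 genes passed (limma, smallest adjusted p = 0.569; 0% of all genes), 0 had an unadjusted p under 0.05 (9.79% of all genes) and 0 lay without overlap (44.3% of all genes). Kcnj13 stood at 0.26 ± 0.16 (0.10 without MPTP 1 week array 1), Tyrp1 at -0.23 ± 0.17, Slc26a7 at 0.20 ± 0.17 and Dct at -0.16 ± 0.21. Without MPTP 1 week array 1, which stands apart, Tyrp1 was at -0.51, Slc26a7 at -0.050 and Dct at -0.47. Both comparisons of times share arrays with those of MPTP and are not independent of them.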

How the data were processed

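RNA from 8 pools of retina (100 ng each) was amplified, biotin-labelled and hybridized. The authors deposited log2 values, 1 per probe set; the submitters' processing notes name RMA and Affymetrix Expression Console, without a version. Dates of array scanning were not used here. Of 28944 probe sets, 21789 name 1 gene in the platform annotation and were used, and 1621 name several. The probe set with the highest mean stood for its gene, which left 19938 genes, with no filter on dim signal.

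R 4.3.3 and limma 3.58.1 (lmFit, eBayes, two-sided) were used to fit group means over all 8 arrays, or additive time and treatment terms for both times together. Adjustment followed Benjamini and Hochberg, across every gene fitted. The fit was tested on simulated data. The number of arrays limits the precision.

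Named genes are the 9 genes, up to 4 genes of smallest unadjusted p in each other pigment list at each MPTP comparison, and the 10 genes most like the mean of the 9. Genes such as Rpe65, Rgr, Lrat, Pmel and Slc24a5 were also named after their values were seen. The 9 genes and all lists were chosen with earlier results of these data known. Array numbers were not taken as pairs. Array differences over all genes correlated at -0.38 between the 1 week groups and 0.12 between the 4 week groups, and at -0.16 to 0.21 otherwise. Over the 9 genes they correlated at 0.09 between the 1 week groups and 0.73 between the 4 week groups, and at -0.44 to 0.66 otherwise. Whether arrays of equal number belong together was not tested. Alternatives were quantile and cyclic loess normalization, median centring, a filter on dim probe sets, other probe set rules, trend and robust eBayes, only the groups compared, a replicate block and left-out arrays.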

Additional observations from a re-analysis of the deposited data

Results flagged for a closer look

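In the 4 saline arrays of both times, Dct on saline 1 week array 2 (7.11) stood far above the other 3 saline arrays. Slc26a7 on saline 4 weeks array 1 (6.32) was also flagged, by a small gap to its other 3 (6.12, 6.09 and 6.12). It was higher still on MPTP 4 weeks array 1 (6.43). In all, 18 sets of 4 arrays were examined (9 genes in saline and in MPTP), and chance marks about 1 in 20 such sets.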

How the results depend on the processing

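In each of the 6 comparisons 0 of the 9 genes passed under any alternative, with adjusted p of at least 0.268 by limma. With a replicate block 0 of 9 passed too, and unadjusted p was under 0.05 in 713, 304 and 880 genes at 1 week, at 4 weeks and over both times, against 842, 381 and 950 without it; the arrays share only a number. Exchanging the numbers of MPTP 1 week in that block, chosen after the data were seen, gave 0 of 9 and 947, 453 and 1092 genes. The signs of these small differences turned in several settings, and the cause was not tested. Without the 2 arrays that stand apart the sign turned in the MPTP effect at 1 week Tyr at 0.021, Tyrp1 at 0.41, Dct at 0.44, Mlana at 0.61, Slc26a7 at 0.17, Gpnmb at 0.16, in the effect over both times Tyr at 0.0034, Tyrp1 at 0.025, Dct at 0.17, Mlana at 0.21, Slc26a7 at 0.075, Gpnmb at 0.059, in the difference of the effects Tyr at -0.026, Dct at -0.41, Mlana at -0.61, Slc26a7 at -0.15, in saline over time Tyrp1 at 0.064, Mlana at 0.19, Slc45a2 at -0.018, in MPTP over time Ttr at -0.34, Slc45a2 at -0.084, Slc26a7 at -0.050. After quantile normalization the sign turned in the MPTP effect at 1 week Tyrp1 at 0.031, Mlana at 0.015, in the MPTP effect at 4 weeks Dct at -0.0081, Slc26a7 at -0.015, in the effect over both times Best1 at -0.0035, Mlana at 0.0087, in the difference of the effects Mlana at -0.012, in MPTP over time Best1 at -0.069, Slc45a2 at -0.018. After cyclic loess normalization the sign turned in the MPTP effect at 1 week Tyrp1 at 0.012, in the MPTP effect at 4 weeks Slc26a7 at -0.0080, in MPTP over time Best1 at -0.070, Slc45a2 at -0.016. After centring each array on its median the sign turned in the MPTP effect at 1 week Tyrp1 at 0.0027, in the MPTP effect at 4 weeks Mlana at -0.013, in MPTP over time Best1 at -0.013. In the MPTP effect at 1 week, leaving out each array in turn gave Ttr -0.16 to 0.82, Best1 -0.24 to 0.034, Tyr -0.26 to 0.011, Tyrp1 -0.29 to 0.28, Dct -0.44 to 0.17, Mlana -0.38 to 0.34, Slc45a2 -0.095 to 0.22, Slc26a7 -0.31 to 0.19, Rpe65 -0.084 to 1.30. In the MPTP effect at 4 weeks, leaving out each array in turn gave Ttr -0.25 to 0.32, Kcnj13 -0.28 to 0.11, Tyr -0.24 to 0.23, Dct -0.065 to 0.12, Mlana -0.054 to 0.059, Slc45a2 -0.11 to 0.087, Slc26a7 -0.17 to 0.21, Rab27a -0.18 to 0.042. In the effect over both times, leaving out each array in turn gave Ttr -0.045 to 0.35, Kcnj13 -0.047 to 0.14, Best1 -0.042 to 0.081, Tyr -0.17 to 0.015, Tyrp1 -0.22 to 0.011, Dct -0.16 to 0.084, Mlana -0.15 to 0.14, Slc45a2 -0.046 to 0.082, Slc26a7 -0.11 to 0.091. In the difference of the effects, leaving out each array in turn gave Ttr -0.79 to 0.20, Tyr -0.11 to 0.35, Tyrp1 -0.45 to 0.12, Dct -0.14 to 0.47, Mlana -0.33 to 0.38, Slc45a2 -0.24 to 0.081, Slc26a7 -0.17 to 0.34. In saline over time, leaving out each array in turn gave Tyrp1 -0.20 to 0.064, Mlana -0.36 to 0.19, Slc45a2 -0.018 to 0.30. In MPTP over time, leaving out each array in turn gave Ttr -0.34 to 0.64, Best1 -0.038 to 0.089, Tyr -0.37 to 0.094, Tyrp1 -0.51 to 0.054, Dct -0.47 to 0.14, Mlana -0.42 to 0.30, Slc45a2 -0.084 to 0.21, Slc26a7 -0.050 to 0.45. A group left with 1 array is assumed to vary like the others. The median difference between the arrays of a group over the 9 genes was 0.27 in all groups together, 0.225 to 0.27 under the other normalizations, centring and the mean of probe sets, and 0.43 with the filter on dim probe sets, which keeps Ttr, Kcnj13 and Mlana. With that filter it was 0.55 in saline 1 week, 0.72 in MPTP 1 week, 0.39 in saline 4 weeks and 0.30 in MPTP 4 weeks. The other 6 genes lie below the median signal, which limits what a small difference can show.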
